A study of Homo sapiens with 6 samples.

Results

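Several human ribosomal proteins are encoded by a pair of genes, a core gene and a paralog with its own locus. The 6 paralogs described here are RPL22L1, RPL26L1, RPL7L1, RPL36AL, RPL39L and RPS27L, taken by symbol from a table of 30726 genes, and each is set beside its core partner, RPL22, RPL26, RPL7, RPL36A, RPL39 or RPS27. The table holds mRNA isolated from polysomes, the mRNAs that carry several ribosomes, of 3 established human breast cancer cell lines labelled wild type. Each line was kept for 8 hours at 1% oxygen (hypoxia) or at 21% oxygen (normoxia): SUM1315, a triple negative line, SKBR3, a luminal HER2-positive line, and T47D, a luminal A line. Cells received cycloheximide, which holds ribosomes on mRNA, before collection. There was a single library for each line at each oxygen level, 6 in all, so a line has no repeat at the same oxygen level, and p-values measure only the spread between these 6 libraries.

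A ribosome holds 1 copy of most of its proteins. A paralog can therefore take the place of its core partner in a ribosome, and it can also have a task of its own outside the mature particle. mRNAs of core ribosomal proteins begin with a 5′ terminal oligopyrimidine tract, a C followed by further pyrimidines, through which LARP1 and the kinase mTORC1 set how many of these mRNAs are loaded on polysomes. Paralogs differ from each other in tissue range: RPL36AL is made widely, RPL39L is best known from testis, and RPS27L is induced by p53.

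Values are used as the authors deposited them, with no unit named, and were taken as RPKM. RPKM is reads per kilobase of a gene's transcript relative to the reads of the whole library. Levels of different genes can thus be set side by side per length. The values give a gene's share of the polysome RNA. Total RNA was not analysed here, so the amount of an mRNA and its loading on ribosomes cannot be told apart. By the step between low values, 1 RPKM on 1 kb of transcript stood for 21.7 to 33.4 reads per library, and 3 reads on 1 kb stood for 0.0898 to 0.138 RPKM, which covers counting error only. Between 9675 and 10842 genes reached 1 RPKM in a library. Marker genes went with the labels of the lines: ESR1 and PGR lay between 4.54 and 11.0 RPKM in T47D and at 0.0370 RPKM or less elsewhere, ERBB2 was at 743 and 615 RPKM in SKBR3 in hypoxia and normoxia and at 8.76 RPKM or less in the other lines, and KRT19 was at 283 RPKM or more in SKBR3 and T47D and at 1.48 RPKM or less in SUM1315. CDH1, a luminal marker, was low in SKBR3 (0.0147 RPKM or less) and in SUM1315 (0.0372 RPKM or less).

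Each pair differs by its own amount of sequence. RPL39L and RPL39 are the pair whose coding sequences are most alike, with 148 of 156 bases identical, and RPS27L and RPS27 are a pair of equal length whose bases have diverged further, with 199 of 255 identical. Both are shown from the start to the stop codon (GENCODE 29, GRCh38), with the bases that differ within the pair in capitals.
RPL39L: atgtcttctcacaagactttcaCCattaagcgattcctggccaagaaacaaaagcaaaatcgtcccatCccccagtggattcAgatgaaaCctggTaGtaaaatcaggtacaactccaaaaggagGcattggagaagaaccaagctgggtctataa
RPL39: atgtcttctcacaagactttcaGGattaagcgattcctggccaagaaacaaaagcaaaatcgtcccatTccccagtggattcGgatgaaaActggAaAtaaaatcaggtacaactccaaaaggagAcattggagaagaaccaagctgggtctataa
RPS27L: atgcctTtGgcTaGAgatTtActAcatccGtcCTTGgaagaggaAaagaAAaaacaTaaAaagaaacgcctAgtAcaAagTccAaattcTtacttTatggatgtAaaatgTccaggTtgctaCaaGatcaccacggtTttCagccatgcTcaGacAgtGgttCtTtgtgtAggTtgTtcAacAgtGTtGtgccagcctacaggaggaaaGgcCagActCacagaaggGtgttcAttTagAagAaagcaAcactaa
RPS27: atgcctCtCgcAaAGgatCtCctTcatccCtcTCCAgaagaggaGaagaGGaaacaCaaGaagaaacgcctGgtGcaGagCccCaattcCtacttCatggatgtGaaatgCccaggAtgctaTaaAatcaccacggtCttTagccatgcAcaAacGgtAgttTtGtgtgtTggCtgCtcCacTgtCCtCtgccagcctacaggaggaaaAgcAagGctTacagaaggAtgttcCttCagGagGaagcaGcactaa
The 8 differing bases of RPL39L fall in 7 codons, of which 4 change the residue and 3 are silent, so 47 of 51 residues are shared. The 56 differing bases of RPS27L fall in 48 codons, of which 45 are silent, so 81 of 84 residues are shared. RPL26L1 shares 143 of 145 residues with RPL26, with 62 of its 64 differing codons silent, and RPL36AL shares 105 of 106 residues with RPL36A, with 30 of 31 silent. RPL22L1 is more distant (90 of 128 aligned residues shared), and RPL7L1 is the most distant (108 of 256).

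How well reads tell the members of a pair apart depends on the length over which the transcripts are identical. The longest identical run was 67 bases in RPL39L and RPL39, 63 bases in RPL36AL and RPL36A, 20 bases in the RPL26 and RPS27 pairs, 17 in the RPL22 pair and 13 in the RPL7 pair. The sources used here do not give the read length, so the share of reads that could be assigned to either gene was not tested, and the RPL39 and RPL36A pairs are the ones where it could matter most. Pseudogenes listed beside a core partner held at most 0.911% of the summed RPKM of gene and pseudogenes (RPL7), and those of RPL7L1 at most 0.366%. The read-through transcript RPL36A-HNRNPH2 had up to 2.22 RPKM.

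The starts of the mRNAs differ between paralogs and core partners. The windows below run from 10 bases before to 20 bases after the annotated start (RefSeq, GRCh38.p14), 5′ to 3′, with the run of pyrimidines that begins at the start in capitals; windows were found for 5 of 6 paralogs, RPL26L1 with a pair of starts, and for 5 of 6 partners.
RPL22L1: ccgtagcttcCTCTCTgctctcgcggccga
RPL22: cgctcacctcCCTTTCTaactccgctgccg
RPL26L1 start 1: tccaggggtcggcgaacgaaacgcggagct
RPL26L1 start 2: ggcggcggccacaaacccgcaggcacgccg
RPL26: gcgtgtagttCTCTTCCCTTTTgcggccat
RPL7L1: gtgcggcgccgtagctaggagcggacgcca
RPL36AL: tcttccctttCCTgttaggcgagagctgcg
RPL36A: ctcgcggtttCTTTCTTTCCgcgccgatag
RPL39: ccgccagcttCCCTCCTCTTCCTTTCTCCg
RPS27L: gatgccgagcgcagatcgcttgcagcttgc
RPS27: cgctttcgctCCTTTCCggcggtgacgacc
A start at C followed by at least 4 more pyrimidines was found in 5 of the 5 partners, with runs of 7 bases (RPL22, RPS27), 10 (RPL36A), 12 (RPL26) and 19 (RPL39). Of the paralogs, only RPL22L1 had one, with a run of 6, while RPL36AL had a run of 3 and the windows of RPL26L1, RPL7L1 and RPS27L had none. In RPL36AL the 10 bases before the annotated start are pyrimidines as well. Whether it counts as such a start therefore rests on the exact start used, which was not tested. Such a start was found in 47 of 78 windows of core ribosomal proteins (60.3%) and in 4.07% of all 35116 windows. The 78 windows come from 63 of the 79 core genes, as some genes have more than 1 start and some have no window. The motif ACGTG or GCGTG, the core of the site that HIF binds, was counted on both strands over 250 bases before to 50 after the start. RPL22L1 and RPL7L1 had 3 matches each, RPL26L1 had 1 per window, and RPL36AL and RPS27L had 0. At least 1 match was held by 4 of 6 paralog windows and 3 of 5 partner windows. The shares were 71.8% of core ribosomal protein windows and 48.4% of all windows. The 3 of RPL7L1 include both strands of CACGTG, the E-box read by MYC, at position -116 from the start, a motif held by 7.26% of all windows. A match is a description of these letters, not of binding.

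The paralogs spanned a wide range of levels on polysomes. RPL36AL stood among the most abundant mRNAs of each library, above 67 to 76 of the 79 core ribosomal proteins. RPL26L1 lay above 5 to 17 of them, RPL39L above 1 to 18, and RPL7L1 above 1 or 2. RPL22L1 lay below all 79 in each library, and RPS27L below all 79 in 5 libraries and above 1 in T47D hypoxia. The median core ribosomal protein was at 254, 148 and 229 RPKM in hypoxia and at 337, 242 and 346 RPKM in normoxia in SUM1315, SKBR3 and T47D.

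**Figure D1:**
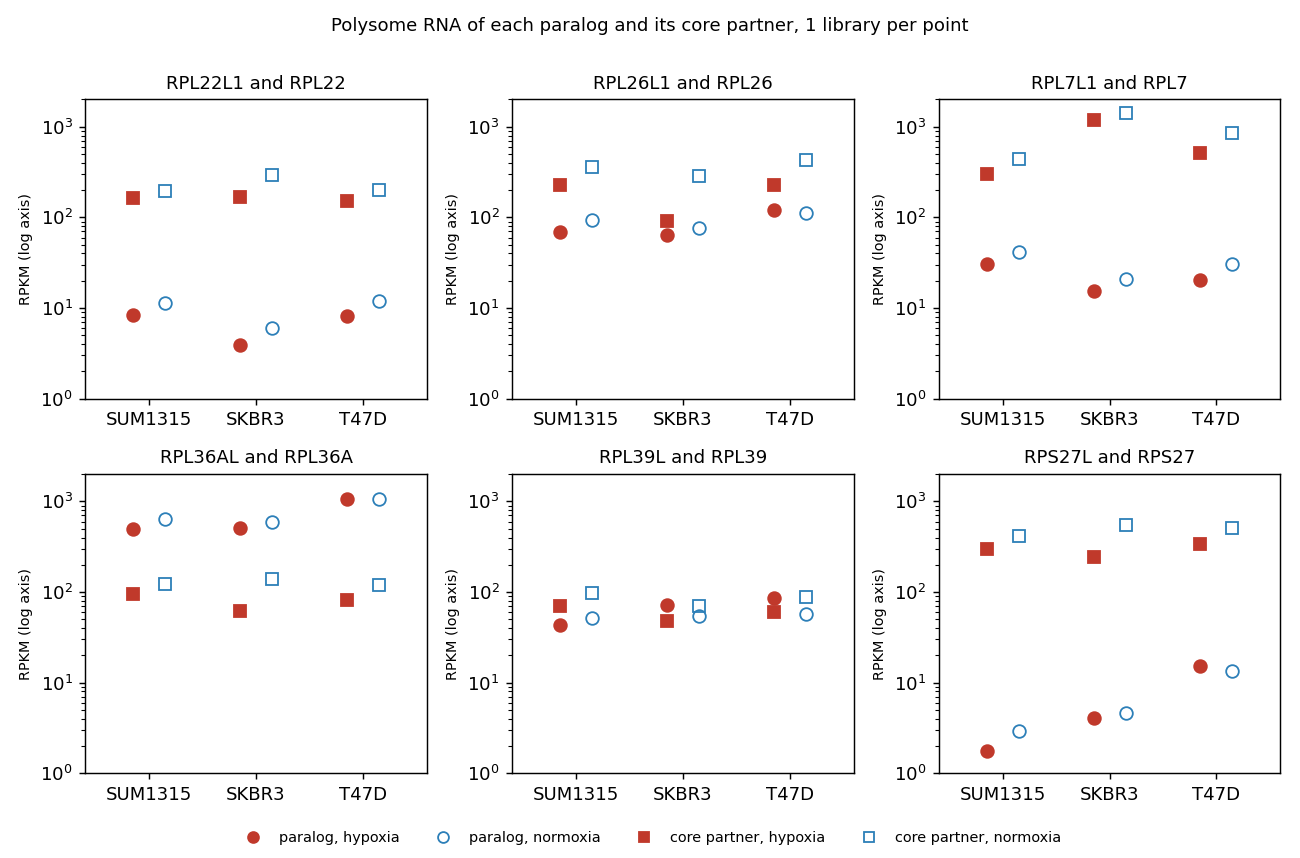
RPKM on a log axis in each of the 6 libraries (1 library per point) for each paralog (circles) and its core partner (squares), hypoxia filled and normoxia open, by cell line. RPL36AL lies above RPL36A in each library, RPL39L and RPL39 lie close to each other, and the other 4 paralogs lie below their partners.

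In hypoxia, none of the 6 paralogs passed the test across the 3 lines, while 31 of the 79 core ribosomal proteins fell. The log2 fold change of hypoxia over normoxia was between -0.47 and 0.24 for the paralogs, with a median of -0.20 and 5 of 6 below 0. The 6 core partners were between -1.07 and -0.48, with a median of -0.61 and 6 of 6 below 0. Of all 79 core ribosomal proteins 0 rose, with a median of -0.56 and 75 below 0, while the median of all 10253 genes tested was -0.0067.

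These counts come from limma on log2(RPKM + 1) with the line as a block and Benjamini-Hochberg adjustment over all 10253 genes. Of all genes tested, 4.12% were higher in hypoxia and 2.26% were lower at an adjusted p under 0.05, so a count of 0 of 6 paralogs is near what the background gives. In either direction, 62 of the 79 core proteins and 26.3% of all genes tested had an unadjusted p under 0.05. Lower in hypoxia at that p were 2 paralogs (RPL22L1 and RPL7L1) and 6 partners, as were 12.0% of all genes tested. With 6 paralogs, a count of 2 sets them little apart from that share. Of the partners, RPL26 and RPS27 fell. The 31 core proteins became 5 without SKBR3, 12 without T47D, 28 without SUM1315, 11 with a pseudocount of 5 and 0 without the filter on low values.

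Within the lines, the gap between paralogs and core proteins was wider in SKBR3 and T47D than in SUM1315. The median log2 difference of the 6 paralogs was -0.40 in SUM1315, against -0.45 for the 79 core proteins, each from 1 library against 1. In SKBR3 they were -0.23 for the paralogs and -0.79 for the core proteins, and in T47D 0.04 for the paralogs and -0.53 for the core proteins. Set among the 79 core values from the fit, RPL39L was above all 79, RPL26L1, RPL36AL and RPS27L each had 6 above them, RPL22L1 had 21 and RPL7L1 had 23. Whether the paralogs as a list differ from the core proteins was not tested.

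**Figure D2:**
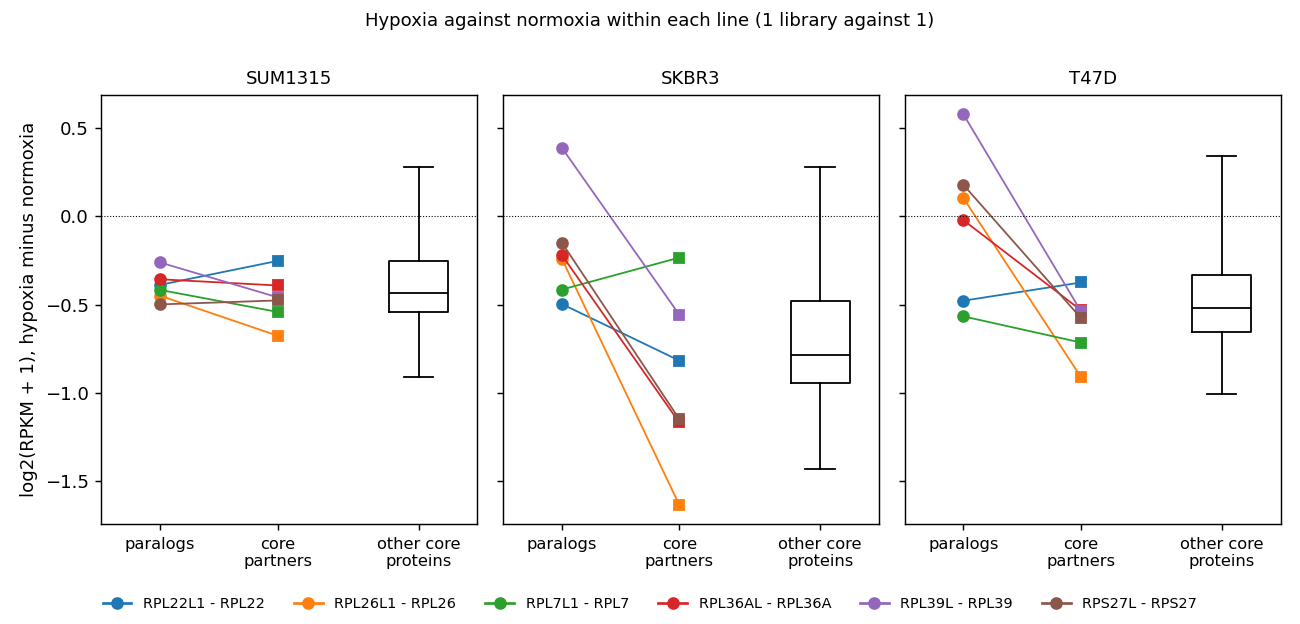
Log2(RPKM + 1) in hypoxia minus normoxia within each line (1 library against 1), for the 6 paralogs, joined by colour to their core partners, and for the other core ribosomal proteins (box, quartiles; whiskers, lowest to highest). In SUM1315 paralogs and partners lie between -0.68 and -0.25, while in T47D the paralogs RPL39L, RPS27L and RPL26L1 are above 0 and the 6 partners are below it.

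RPL39L (chromosome 3, 187120948 to 187180908, minus strand) encodes a copy of RPL39, a small protein of the wall of the ribosomal exit tunnel, and in mouse it serves male germ cells. It had 43.2, 71.2 and 86.9 RPKM in hypoxia, against 51.9, 54.1 and 57.9 RPKM in normoxia, in SUM1315, SKBR3 and T47D. The normoxia values lay close together, while the hypoxia values lay below all of them in SUM1315 and above all of them in SKBR3 and T47D. Counting error alone was smaller than these gaps in SKBR3, with 95% intervals of 68.1 to 74.4 RPKM in hypoxia and 51.6 to 56.7 RPKM in normoxia for a transcript of 1 kb. The means were 67.1 ± 22.1 RPKM in hypoxia and 54.6 ± 3.0 RPKM in normoxia (SD, n = 3 lines each), and the log2 fold change of 0.24 ± 0.19 (SE, 95% interval -0.18 to 0.65) did not pass the test (limma, adjusted p = 0.438).

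RPL39 itself had 70.7, 47.6 and 60.1 RPKM in hypoxia, against 97.5, 70.5 and 87.6 RPKM in normoxia. It was lower in hypoxia in each line, though the groups overlapped at the edge, and its log2 fold change of -0.52 ± 0.15 did not pass (limma, adjusted p = 0.0649). The ratio of RPL39L to RPL39 was 0.610, 1.49 and 1.45 in hypoxia, against 0.532, 0.768 and 0.661 in normoxia. The paralog was thus the more abundant of the pair only in the hypoxia libraries of SKBR3 and T47D. The ratio was higher in hypoxia in 3 of 3 lines, by 0.76 ± 0.50 on the log2 scale (SD over lines), with p = 0.25 in an exact two-sided sign-flip permutation test, the smallest that 3 lines allow, and 0.5 after Benjamini-Hochberg adjustment over the 6 pairs.

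RPL26L1 (chromosome 5, 172958729 to 172969771, plus strand) encodes a near copy of RPL26, a protein of the large subunit near the exit tunnel that is also known to bind p53 mRNA. It had 68.5, 64.7 and 121 RPKM in hypoxia, against 93.9, 76.5 and 113 RPKM in normoxia. T47D was highest at both oxygen levels and the groups overlapped. The means were 84.9 ± 31.7 RPKM in hypoxia and 94.4 ± 18.2 RPKM in normoxia, and the log2 fold change of -0.19 ± 0.16 did not pass (limma, adjusted p = 0.470).

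RPL26 had 226, 92.3 and 227 RPKM in hypoxia, against 362, 288 and 427 RPKM in normoxia, and the groups did not overlap. It fell with a log2 fold change of -1.07 ± 0.20 (limma, adjusted p = 0.0154), the lowest of the 79 core proteins, and it stayed past the threshold with each line left out. The within-line differences were -0.68, -1.63 and -0.91. The ratio of RPL26L1 to RPL26 was 0.303, 0.701 and 0.535 in hypoxia, against 0.259, 0.265 and 0.264 in normoxia. In normoxia the paralog made up 20.8% ± 0.201 of the RPKM of the pair in the 3 lines, and in hypoxia 33.1% ± 9.11. The log2 ratio was higher in hypoxia in 3 of 3 lines, by 0.88 ± 0.60 (exact two-sided sign-flip test, p = 0.25, adjusted 0.5).

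RPL36AL (chromosome 14, 49618519 to 49620685, minus strand) encodes a near copy of RPL36A, a protein of the large subunit near the site from which tRNA leaves. It had 503, 512 and 1054 RPKM in hypoxia, against 644, 595 and 1069.7 RPKM in normoxia. T47D stood above the other lines at both oxygen levels, and the groups overlapped. The means were 689.5 ± 316 RPKM in hypoxia and 769 ± 261 RPKM in normoxia, with a log2 fold change of -0.20 ± 0.15 (limma, adjusted p = 0.418).

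RPL36A had 94.5, 61.6 and 82.7 RPKM in hypoxia, against 124, 139.6 and 119.9 RPKM in normoxia. The groups did not overlap, and SKBR3 had both the highest and the lowest value. The log2 fold change of -0.70 ± 0.18 was just short of the threshold (limma, adjusted p = 0.0504) and passed without SUM1315 (-0.85, adjusted p = 0.0288). The ratio of RPL36AL to RPL36A was 5.32, 8.30 and 12.7 in hypoxia, against 5.18, 4.26 and 8.92 in normoxia, so the paralog was the more abundant of the pair in each library, with 88.7% ± 4.30 of the pair's RPKM in hypoxia and 84.9% ± 4.56 in normoxia. The log2 ratio was higher in hypoxia in 3 of 3 lines, by 0.50 ± 0.46 (exact two-sided sign-flip test, p = 0.25, adjusted 0.5), and by 0.28 without SKBR3. In SUM1315 the difference was 0.04.

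RPL22L1 (chromosome 3, 170864875 to 170870483, minus strand) encodes a paralog of RPL22, an RNA-binding protein of the large subunit that in mouse restrains the expression of Rpl22l1. It had 8.37, 3.95 and 8.27 RPKM in hypoxia, against 11.3, 5.98 and 11.9 RPKM in normoxia. Hypoxia was lower than normoxia in each line, but the groups overlapped because both SKBR3 values were low. The means were 6.86 ± 2.52 RPKM in hypoxia and 9.71 ± 3.25 RPKM in normoxia. The log2 fold change of -0.45 ± 0.13 (95% interval -0.75 to -0.16) had an unadjusted p of 0.00687 and did not pass after adjustment (limma, adjusted p = 0.0696).

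RPL22 had 162, 167 and 153 RPKM in hypoxia, against 193, 295 and 198 RPKM in normoxia, without overlap, and a log2 fold change of -0.48 ± 0.17 (limma, adjusted p = 0.105). The ratio of RPL22L1 to RPL22 was 0.0516, 0.0236 and 0.0541 in hypoxia, against 0.0583, 0.0203 and 0.0600 in normoxia. It was lower in hypoxia in SUM1315 and T47D and higher in SKBR3, with a mean log2 difference of -0.03 ± 0.22 (exact two-sided sign-flip test, p = 1). The paralog and its partner were thus both lower in hypoxia in each line, and neither passed the test.

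RPL7L1 (chromosome 6, 42879618 to 42889925, plus strand) encodes a distant relative of RPL7, and its yeast counterpart Rlp7 is an assembly factor of the large subunit. It had 30.5, 15.3 and 20.3 RPKM in hypoxia, against 41.1, 20.7 and 30.6 RPKM in normoxia. Hypoxia was lower in each line, with log2(RPKM + 1) differences of -0.42, -0.41 and -0.57, while the groups overlapped because the lines differ. The means were 22.0 ± 7.75 RPKM in hypoxia and 30.8 ± 10.2 RPKM in normoxia, and the log2 fold change was -0.47 ± 0.14 (95% interval -0.79 to -0.14; limma, unadjusted p = 0.0093, adjusted p = 0.0797).

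RPL7 had 299.6, 1195 and 514 RPKM in hypoxia, against 436, 1405 and 843 RPKM in normoxia. SKBR3 was far above the other lines at both oxygen levels. Its log2 fold change was -0.50 ± 0.16 (limma, adjusted p = 0.0821). The ratio of RPL7L1 to RPL7 was 0.102, 0.0128 and 0.0396 in hypoxia, against 0.0941, 0.0147 and 0.0363 in normoxia. Here the lines differed and oxygen moved the ratio little, with a mean log2 difference of 0.01 ± 0.19 (exact two-sided sign-flip test, p = 1).

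RPS27L (chromosome 15, 63125872 to 63158021, minus strand) encodes a near copy of RPS27, a zinc finger protein of the small subunit, and its gene is a target of p53. It had 1.79, 4.10 and 15.2 RPKM in hypoxia, against 2.93, 4.65 and 13.3 RPKM in normoxia. The lines were ordered SUM1315, SKBR3 and T47D at both oxygen levels, with wide gaps, and the oxygen groups overlapped. At its lowest, in SUM1315, the counting intervals for 1 kb of transcript were 1.26 to 2.42 RPKM in hypoxia and 2.27 to 3.76 RPKM in normoxia, which overlap. The means were 7.03 ± 7.17 RPKM in hypoxia and 6.96 ± 5.56 RPKM in normoxia, and the log2 fold change was -0.16 ± 0.16 (limma, adjusted p = 0.546).

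RPS27 had 297, 247 and 342 RPKM in hypoxia, against 414, 548 and 509.9 RPKM in normoxia, and the groups did not overlap. It fell with a log2 fold change of -0.73 ± 0.17 (limma, adjusted p = 0.0364). Without SKBR3 the fall was smaller and the call was lost (-0.53, adjusted p = 0.125). Without T47D the fall was larger, at -0.81, but the call was lost as well (adjusted p = 0.0540). It was also lost with a pseudocount of 5 (-0.72, adjusted p = 0.0626). The ratio of RPS27L to RPS27 was 0.00601, 0.0166 and 0.0444 in hypoxia, against 0.00709, 0.00848 and 0.0261 in normoxia. It was lower in hypoxia in SUM1315 and higher in SKBR3 and T47D, with a mean log2 difference of 0.50 ± 0.65 (exact two-sided sign-flip test, p = 0.5, adjusted 0.75). That mean was 0.26 without SKBR3 and 0.87 without SUM1315.

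**Figure D3:**
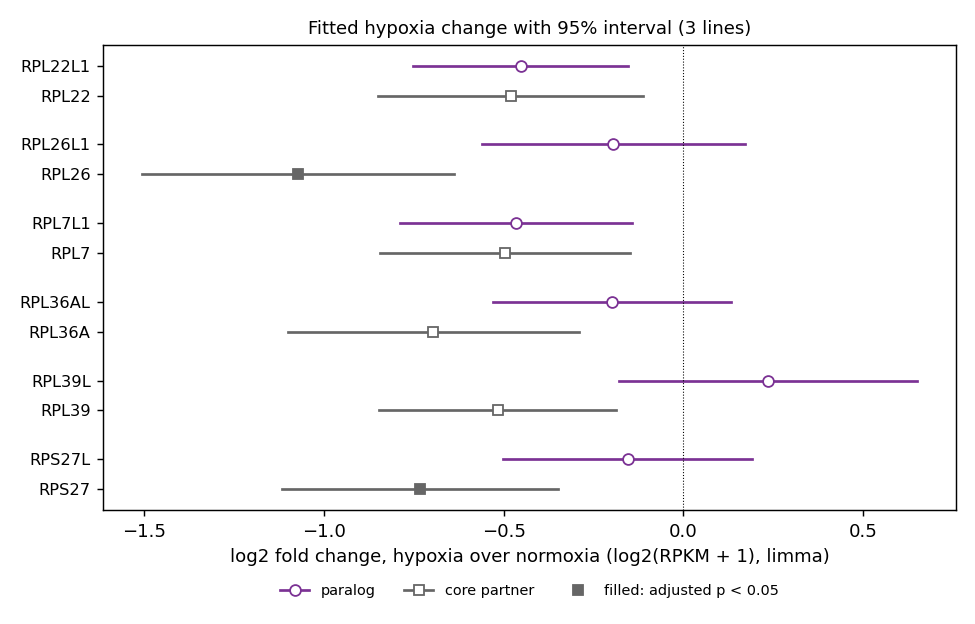
Log2 fold change of hypoxia over normoxia on log2(RPKM + 1) for each paralog (circles) and core partner (squares), with 95% intervals from limma over 3 lines; filled symbols have an adjusted p under 0.05. RPL26 at -1.07 and RPS27 at -0.73 are filled, and RPL39L at 0.24 is the only gene right of 0.

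Across the 6 pairs, the paralog's share of its pair was higher in hypoxia in 3 of 3 lines for RPL26L1, RPL36AL and RPL39L. Their partners were lower in hypoxia in each line. RPL36AL was itself lower in each line (-0.36, -0.22 and -0.02 in SUM1315, SKBR3 and T47D). RPL26L1 was lower in SUM1315 and SKBR3, and RPL39L in SUM1315. The median fitted change of all genes tested was -0.0067. A gene at that median would also gain share against these partners. On log2(RPKM + 1), the paralog had a higher fitted log2 fold change than its partner in each of the 6 pairs. The values were close for RPL22L1 and RPL22 (-0.45 and -0.48) and for RPL7L1 and RPL7 (-0.47 and -0.50). With a pseudocount of 0.1 the order turned for RPL22L1 and RPL22 (-0.51 and -0.48). Without a pseudocount, the mean log2 difference of their ratio was -0.03. For RPL22L1, RPL7L1 and RPS27L the mean log2 difference of the ratio was smaller than its SD over the lines. With 3 lines no pair can reach p under 0.05 in the sign-flip test, and the smallest adjusted p was 0.5.

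**Figure D4:**
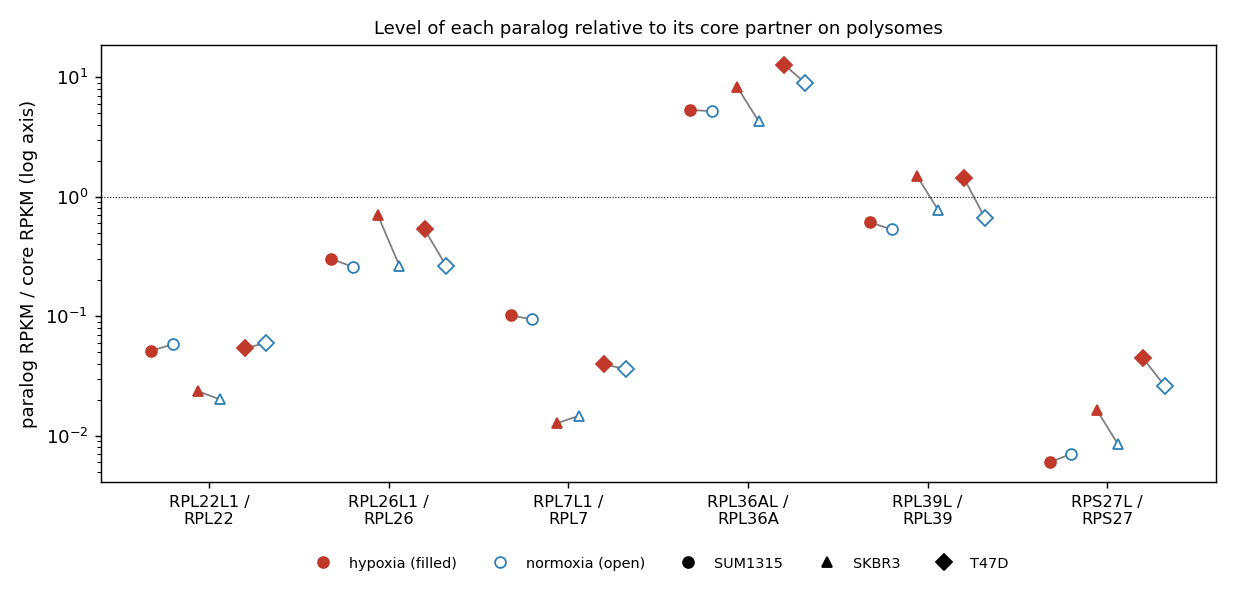
RPKM of each paralog divided by that of its core partner (log axis) in each library, hypoxia filled and normoxia open, with a line joining the oxygen levels of each cell line. SKBR3 and T47D show higher ratios in hypoxia for RPL26L1, RPL36AL, RPL39L and RPS27L, while RPL7L1 differs mainly between lines.

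Paralog levels differed between the lines. T47D had the most RPS27L and RPL36AL, SKBR3 had the least RPL22L1, and SUM1315 had more RPL7L1 than SKBR3. These comparisons use the same limma fit, with 2 libraries per line at different oxygen levels. Of all genes tested, 41.8% were higher in SUM1315 than in SKBR3 and 28.0% were lower; 39.0% and 30.2% were higher and lower in SUM1315 than in T47D; and 26.6% and 31.2% were higher and lower in SKBR3 than in T47D. Of the 6 paralogs, 2 were higher and 1 lower in SUM1315 than in SKBR3, 1 higher and 4 lower in SUM1315 than in T47D, and 0 higher and 5 lower in SKBR3 than in T47D. The first count is near the background. Of the 79 core ribosomal proteins, 39 were higher and 6 lower in SUM1315 than in SKBR3. Against T47D, 9 were higher and 20 lower in SUM1315, and 6 were higher and 42 lower in SKBR3. More genes lower than higher in SKBR3 than in T47D was thus a trait of both lists. Whether the lists differ was not tested. The median of all genes was 0.21, 0.16 and -0.05 in these comparisons on the log2 scale, so the paralogs' values below stand against those medians.

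RPS27L averaged 2.36 ± 0.812 RPKM in SUM1315, 4.37 ± 0.388 RPKM in SKBR3 and 14.3 ± 1.34 RPKM in T47D (SD, 2 libraries per line). The libraries of the lines did not overlap. RPS27L was lower in SUM1315 than in T47D (log2 difference -2.20 ± 0.19, adjusted p = 4.35e-06, limma) and in SKBR3 than in T47D (-1.50 ± 0.19, adjusted p = 0.000100). It was also lower in SUM1315 than in SKBR3 (-0.70 ± 0.19, adjusted p = 0.00780), a call lost without the SUM1315 hypoxia library (-0.44, adjusted p = 0.169).

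RPL36AL averaged 573 ± 99.6 RPKM in SUM1315, 553 ± 59.0 RPKM in SKBR3 and 1062 ± 11.0 RPKM in T47D. The T47D libraries lay above the other 4. The log2 difference was -0.90 ± 0.18 between SUM1315 and T47D (limma, adjusted p = 0.00137) and -0.94 ± 0.18 between SKBR3 and T47D (adjusted p = 0.00147), and both calls held with each library left out. SUM1315 and SKBR3 differed by 0.04 ± 0.18 (adjusted p = 0.840).

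RPL22L1 averaged 9.81 ± 2.04 RPKM in SUM1315, 4.96 ± 1.43 RPKM in SKBR3 and 10.1 ± 2.57 RPKM in T47D. SKBR3 was lowest at both oxygen levels. The log2 difference was 0.87 ± 0.16 between SUM1315 and SKBR3 (limma, adjusted p = 0.000864) and -0.90 ± 0.16 between SKBR3 and T47D (adjusted p = 0.00104), held with each library left out. SUM1315 and T47D differed by -0.03 ± 0.16 (adjusted p = 0.882).

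RPL7L1 averaged 35.8 ± 7.45 RPKM in SUM1315, 18.0 ± 3.83 RPKM in SKBR3 and 25.5 ± 7.24 RPKM in T47D. At each oxygen level the order was SUM1315, T47D, SKBR3. The log2 difference between SUM1315 and SKBR3 was 0.95 ± 0.18 (limma, adjusted p = 0.000788), held with each library left out. RPL7 ran the other way, with 368 ± 96.6 RPKM in SUM1315, 1300.3 ± 148 RPKM in SKBR3 and 678.5 ± 233 RPKM in T47D. RPL7L1 was also higher in SUM1315 than in T47D (0.49 ± 0.18, adjusted p = 0.0310) and lower in SKBR3 than in T47D (-0.46 ± 0.18, adjusted p = 0.0452). The first of these calls was lost without the SUM1315 hypoxia library (adjusted p = 0.234), the SUM1315 normoxia library (0.158), the T47D hypoxia library (0.148) or the T47D normoxia library (0.0537). The second was lost with any of the 6 libraries left out, with adjusted p between 0.0773 and 0.196.

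RPL26L1 averaged 81.2 ± 17.9 RPKM in SUM1315, 70.6 ± 8.35 RPKM in SKBR3 and 117 ± 6.01 RPKM in T47D. The T47D libraries lay above the other 4. RPL26L1 was lower in SUM1315 than in T47D (-0.54 ± 0.20, limma, adjusted p = 0.0345) and in SKBR3 than in T47D (-0.73 ± 0.20, adjusted p = 0.0108). The first call was lost without the SUM1315 hypoxia library (-0.35, adjusted p = 0.390), the SUM1315 normoxia library (-0.73, adjusted p = 0.0593) or the T47D hypoxia library (-0.32, adjusted p = 0.262). The second was lost without the SKBR3 hypoxia library (-0.69, adjusted p = 0.0537) or the T47D hypoxia library (-0.50, adjusted p = 0.0966). SUM1315 and SKBR3 differed by 0.19 ± 0.20 (adjusted p = 0.423).

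RPL39L averaged 47.6 ± 6.18 RPKM in SUM1315, 62.7 ± 12.1 RPKM in SKBR3 and 72.4 ± 20.5 RPKM in T47D. The lines lay closer together in normoxia, between 51.9 and 57.9 RPKM, than in hypoxia, between 43.2 and 86.9 RPKM. RPL39L was lower in SUM1315 than in T47D (-0.57 ± 0.23, limma, adjusted p = 0.0444), a call lost without the SUM1315 hypoxia library (-0.20, adjusted p = 0.633) or the T47D hypoxia library (-0.32, adjusted p = 0.316). SUM1315 and SKBR3 differed by -0.38 ± 0.23 (adjusted p = 0.155), which passed without the SUM1315 normoxia library (-0.76, adjusted p = 0.0493), and SKBR3 and T47D differed by -0.19 ± 0.23 (adjusted p = 0.495).

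How far a paralog followed its partner over the 6 libraries differed between pairs. Pearson's r of log2(RPKM + 1) was 0.62 for RPL26L1 and RPL26, 0.32 for RPS27L and RPS27, 0.19 for RPL36AL and RPL36A, -0.07 for RPL22L1 and RPL22, -0.57 for RPL39L and RPL39 and -0.64 for RPL7L1 and RPL7. The tested genes with the highest r over the same 6 libraries were MED27 (0.998) and RPS10 (0.995) for RPL22L1, COA4 (0.989) and FBXW2 (0.986) for RPL26L1, RPP38 and CHCHD3 (0.996 each) for RPL7L1, C16orf91 (0.992) and NFIB (0.991) for RPL36AL, MRPL14 (0.979) and AP002360.1 (0.973) for RPL39L, and FAM204A (0.998) and BORCS7 (0.997) for RPS27L. These values describe 6 points that share their libraries and lines and were picked as the highest of 10253 genes.

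Other genes that resemble ribosomal proteins were few. Of 5 listed, RPL3L and RPL10L stayed under 1 RPKM in each library, with highest values of 0.412 and 0.117 RPKM. MRTO4, an assembly factor of the ribosomal stalk related to RPLP0, had 44.6, 32.7 and 32.7 RPKM in hypoxia, against 79.4, 45.2 and 52.2 RPKM in normoxia. It was lower in hypoxia in each line and fell with a log2 fold change of -0.64 ± 0.15 (limma, adjusted p = 0.0373). With SUM1315 left out the value was -0.56 (adjusted p = 0.178). With T47D left out the call was lost (adjusted p = 0.101) though the value stayed at -0.64. Falls over all genes tested also went from 232 to 53 without T47D. RSL24D1, an assembly factor of the large subunit, did not pass (-0.22 ± 0.14, limma, adjusted p = 0.351), nor did RSL1D1, a nucleolar protein (-0.21 ± 0.15, adjusted p = 0.412).

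As RPS27L is a p53 target, other p53 targets were set beside it. Of 22 tested, 1 rose and 1 fell in hypoxia, with a median of -0.13 and 13 below 0, and 6 had an unadjusted p under 0.05. These counts are near the shares over all genes, of which 4.12% rose, 2.26% fell and 26.3% had an unadjusted p under 0.05. BBC3, which encodes the apoptosis inducer PUMA, had 3.42, 5.70 and 4.45 RPKM in hypoxia, against 1.48, 2.83 and 2.04 RPKM in normoxia. The groups did not overlap, and it rose with a log2 fold change of 0.83 ± 0.12 (limma, adjusted p = 0.00687). AEN, a nuclease induced by p53, had 9.89, 2.01 and 3.08 RPKM in hypoxia, against 19.2, 5.72 and 7.37 RPKM in normoxia, and fell with a log2 fold change of -1.03 ± 0.13 (limma, adjusted p = 0.00402). Its groups overlapped because SUM1315 was high at both oxygen levels.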

How the data were processed

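The libraries, 1 per line and oxygen level, were mapped to groups by the labels' titles and treatments. The authors deposited 1 table of values per gene, whose unit no header names, and it was taken as RPKM. With the best-fitting step per library, 63.9% to 66.6% of 2395 to 2591 single-transcript genes fell on whole reads (tolerance 0.02 of a read). A fixed step would give 4% by chance. That shows values scaled to transcript length, and it does not by itself tell RPKM from another such unit. Per the submitters' processing notes, Trimmomatic, HISAT2, SAMtools and Partek were used with GRCh38 (hg38). The sources used here give neither the annotation nor the strand setting. NEBNext Ultra libraries were made, per the labels' protocols.

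Genes that reached 1 RPKM in 3 or more of the 6 libraries were kept (10253), a filter that all 6 paralogs and 6 partners passed. They were tested on log2(RPKM + 1), a scale on which the fold changes of low genes are understated, with limma 3.58.1 in R 4.3.3 (two-sided, cell line as block, mean-variance trend, Benjamini-Hochberg adjusted p under 0.05, with 8.02 prior and 2 residual degrees of freedom). The pairing by line comes from the labels, and residuals from the oxygen means correlated within each line at 0.97 (SUM1315), 0.94 (SKBR3) and 0.94 (T47D). Paralog to partner ratios used no pseudocount and an exact sign-flip test (Python 3.11.15, numpy 2.4.6). Counting intervals used scipy 1.17.1. Pairs of sequences were aligned with Biopython 1.88. The fit was tested on simulated data, and the sign-flip test on short made-up sets of values. Named genes are the paralogs, their partners, the 2 genes most correlated with each paralog, and the largest changes past the test in each list. Alternatives changed the pseudocount, filter, scaling, block and lines or libraries. The paralogs and the gene lists were chosen with earlier results of these data known.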

Additional observations from a re-analysis of the deposited data

Results flagged for a closer look

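Of the 6 paralogs, 3 went different ways in different lines, each from 1 library against 1, and the difference between lines was not tested. The values are hypoxia minus normoxia on the log2(RPKM + 1) scale. In SUM1315, RPL26L1 was at -0.45, RPS27L at -0.50 and RPL39L at -0.26. In SKBR3, RPL26L1 was at -0.24, RPS27L at -0.15 and RPL39L at 0.39. In T47D all 3 were above 0, with RPL26L1 at 0.10, RPS27L at 0.18 and RPL39L at 0.58. Their partners RPL26, RPS27 and RPL39 were below 0 in each of the 3 lines.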

How the results depend on the processing

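No paralog passed the hypoxia test under any alternative, and the direction of its estimate held except for RPS27L, at 0.016 without SUM1315. Of the partners, RPL36A passed beside RPL26 and RPS27 without SUM1315 and with a common sum per library, and the 2 partners that fell became 1 with a pseudocount of 5, without SKBR3 or without T47D, and 0 without the filter or with no replicate block. RPL26 had an adjusted p of 0.434 without the filter, and without the replicate block, which leaves the differences between lines in the error, no gene passed. Over all genes, 422 rises and 232 falls became 171 and 72 with a pseudocount of 5, 179 and 53 without T47D, and 0 and 0 without the filter (2715 at an unadjusted p under 0.05) or without the block (68). MRTO4 was not past the threshold with a pseudocount of 5 (0.0590) or median-ratio scaling (0.0513).

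Paralogs lower in SUM1315 than in SKBR3 numbered 0 with no filter and 2 with median-ratio scaling, and 0 to 2 with 1 library left out. Lower in SUM1315 than in T47D were 2 with no filter and 2 with a common sum per library, and 2 to 4 with 1 library left out, while higher were 0 with median-ratio scaling and 0 to 1 with 1 library left out. Lower in SKBR3 than in T47D were 3 with no filter, and 3 to 4 with 1 library left out. Directions turned only among differences short of the threshold. Between SUM1315 and SKBR3, RPL26L1 was at -0.084 with median-ratio scaling and -0.0035 without the SUM1315 normoxia library, and RPL36AL at -0.23 and -0.074. Between SUM1315 and T47D, RPL22L1 was at 0.14 with a common sum and 0.020 without the SUM1315 normoxia library, and between SKBR3 and T47D RPL39L was at 0.068 without the T47D hypoxia library. The log2 ratio of RPL22L1 to RPL22 was 0.027 with a pseudocount of 1 and -0.16 to 0.036 with 1 line left out (0.024 without T47D). That of RPL7L1 to RPL7 was -0.045 to 0.12 with 1 line left out (-0.039 without SUM1315). Causes were not tested. Precision is limited by 1 library per line and oxygen level, and at low levels by depth, as for RPS27L in SUM1315.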
